A study of Mus musculus with 16 samples.

Results

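The fibrillar collagens examined here are 7 genes, Col1a1, Col1a2, Col3a1, Col5a1, Col5a2, Col5a3 and Col11a1, chosen by name from the 29695 genes of a mouse aortic RNA count table. All 7 passed the filter on low counts, which left 15984 genes for testing. Messenger RNA was sequenced from suprarenal aortae (the stretch of abdominal aorta above the kidney arteries) of male mice, 4 libraries per group and 16 in all. The 4 groups were wild-type (WT) C57BL/6 mice infused with saline, WT mice infused with angiotensin II (AngII, the peptide hormone that constricts vessels and raises blood pressure) at 1000 ng/kg/min, Vamp8-/- knockout (KO) mice infused with saline, and KO mice infused with AngII at the same dose. Each infusion ran from a minipump under the skin for 5 days. The labels give no Cre driver or transgene for the knockout, no age, and no statement on whether the WT mice were littermates. The submitters left out vessels with intramural bleeding or visible disease, so the AngII groups hold aortae without those changes. Replicates are biological by their titles, and a group's spread below is over its 4 libraries.

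Fibrillar collagens form long triple helices that line up outside the cell into banded fibrils, which give the aortic media and adventitia their tensile strength. Col1a1 and Col1a2 encode the chains of type I collagen, the main load-bearing fibril, and Col3a1 encodes the single chain of type III collagen, abundant in distensible vessels. Col5a1, Col5a2 and Col5a3 encode chains of type V collagen, a minor component that starts fibrils and limits their diameter, and Col11a1 encodes a chain of the related type XI collagen, best known from cartilage. Mutations in COL3A1 cause vascular Ehlers-Danlos syndrome, in which arteries rupture, and mutations in COL5A1 or COL5A2 cause the classical form. The AngII infusion model is widely used to study wall remodelling and aneurysm of this part of the aorta. Vamp8 encodes a vesicle SNARE protein that takes part in membrane fusion during secretion and autophagy.

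Libraries held 13284804 to 21643548 counted reads, of which the 7 genes took 52517 to 672569. Mitochondrially encoded genes took 13.4% ± 3.88 (SD, n = 4) and 12.6% ± 3.06 of the counts in the WT saline and AngII groups, and 30.5% ± 2.49 and 16.1% ± 6.12 in the KO saline and AngII groups. Vamp8 itself, the targeted gene, was at 45.9 to 60.9 CPM (read counts scaled for library depth and composition) in the 8 WT libraries and at 14.1 to 31.4 CPM in 7 of the 8 KO libraries. The library labelled KO saline replicate 1 had 53.3 CPM, within the WT range, and also had the lowest scaling factor of all, 0.716. KO AngII replicate 4 held the lowest Vamp8 value and a sum of 3829 CPM over 10 markers of neurons and chromaffin cells, against 189 CPM or less in every library of the other 3 groups. The main values that rest on these libraries are given below with and without both. Markers of the labelled tissue were present in every group: Myh11, the smooth muscle myosin, averaged 2406 to 4750 CPM and Cdh5, the endothelial cadherin, 155 to 243 CPM.

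To compare levels between genes, CPM was divided by exon length in kilobases, taken over all annotated exons of a gene. That length was 6563 bases for Col1a1, 9816 for Col3a1 and 12426 for Col1a2, and it can exceed that of the transcripts present. The order of the group means was the same in all 4 groups: Col1a1, Col3a1, Col1a2, Col5a1, Col5a2, Col5a3, Col11a1. In WT saline, the level per kilobase was 506 CPM for Col1a1, 452 for Col3a1 and 271 for Col1a2. In the same group it was 57.5 for Col5a1, 39.2 for Col5a2, 6.53 for Col5a3 and 0.0992 for Col11a1. Before division by length, the WT saline means were 3324 CPM for Col1a1, 4437 for Col3a1 and 3368 for Col1a2. The order within this leading trio thus depends on the lengths used. Neighbours within the leading trio overlapped between libraries in each group, as did Col5a1 and Col5a2. The steps from Col1a2 to Col5a1, from Col5a2 to Col5a3 and from Col5a3 to Col11a1 did not overlap in any group. Types I and III thus stood above type V, and within type V the Col5a3 level stood far below the other two. Col11a1 rested on few reads and is the least precisely measured of the set.

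The levels of 5 of the genes were closely correlated between libraries, and those of Col5a3 and Col11a1 less so over all 16 (below). RefSeq's promoter table (GRCm38.p6 build) had an entry for 5 of the 7 genes and none for Col1a1 and Col5a2. The 250 bases before the transcription start are shown for 4 of these 5. They are Col1a2 at chr6:4505368-4505617, plus strand, Col3a1 at chr1:45311288-45311537, plus strand, Col5a1 at chr2:27886175-27886424, plus strand, and Col5a3 at chr9:20815068-20815317, minus strand. Each is written 5′ to 3′ on the gene's own strand, and capitals mark matches to 4 short motifs on either strand.
Col1a2: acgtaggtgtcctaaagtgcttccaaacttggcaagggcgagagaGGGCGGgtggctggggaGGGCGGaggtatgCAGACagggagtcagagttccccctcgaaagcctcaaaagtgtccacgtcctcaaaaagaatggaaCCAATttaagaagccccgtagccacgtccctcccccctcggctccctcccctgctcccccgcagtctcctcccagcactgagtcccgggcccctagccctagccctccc
Col3a1: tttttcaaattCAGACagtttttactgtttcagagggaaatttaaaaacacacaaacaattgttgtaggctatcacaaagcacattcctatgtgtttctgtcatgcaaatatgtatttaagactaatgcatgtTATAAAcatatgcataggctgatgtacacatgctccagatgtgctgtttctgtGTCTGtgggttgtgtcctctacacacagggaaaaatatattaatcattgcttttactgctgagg
Col5a1: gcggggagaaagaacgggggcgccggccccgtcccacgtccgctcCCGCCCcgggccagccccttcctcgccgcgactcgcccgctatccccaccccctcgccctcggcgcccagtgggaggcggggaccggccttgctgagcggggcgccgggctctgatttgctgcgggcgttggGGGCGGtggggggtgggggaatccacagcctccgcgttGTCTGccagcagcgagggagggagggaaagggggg
Col5a3: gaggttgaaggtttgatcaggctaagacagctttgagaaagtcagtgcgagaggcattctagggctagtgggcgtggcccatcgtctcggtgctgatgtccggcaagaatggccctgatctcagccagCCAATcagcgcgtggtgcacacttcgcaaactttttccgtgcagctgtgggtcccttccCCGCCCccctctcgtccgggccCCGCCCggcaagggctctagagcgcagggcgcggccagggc

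The motifs searched were the CCAAT box (CCAAT), the TATA box (TATAAA), the GC box (GGGCGG) and the core letters of a SMAD element (CAGAC), the last being the sequence bound by the transducers of TGF-β signalling. No match overlapped another. The Col1a2 window held a CCAAT match starting 109 bases upstream of the start, GC boxes at 205 and 188, and a CAGAC match at 175. The Col3a1 window had a base composition of 35.2% GC, a TATAAA match at 117 bases upstream and CAGAC matches, 1 on each strand, at 239 and 64. The Col5a1 window had 76.4% GC, GC boxes at 205 and 73 and a CAGAC match on the reverse strand at 35. The Col5a3 window held a CCAAT match at 122 and reverse-strand GC boxes at 63 and 41, and no CAGAC match. The Col11a1 window, not printed, held a reverse-strand CAGAC match at 134, a reverse-strand CCAAT match at 79 and GC boxes at 110 and 19. The part of these motifs in the correlations was not tested. These letters are common: of 32851 promoter windows of the same length, 33.8% held CCAAT, 12.4% TATAAA, 32.7% GGGCGG and 42.2% CAGAC. A match is a description of the sequence and not evidence of binding.

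In WT mice, type I and type III collagen transcripts had higher means after AngII than after saline, and no member passed the test for a difference. Col1a1 was at 4873, 2312, 2543 and 3567 CPM in WT saline replicates 1 to 4 and at 4118, 3643, 6617 and 11158 CPM in WT AngII replicates 1 to 4. The AngII replicates 3 and 4 lay above every saline library and replicates 1 and 2 lay within the saline range. The difference was 0.94 on the log2 scale (SE 0.40, adjusted p = 0.489, edgeR's quasi-likelihood test, adjusted over all 15984 genes), a fold of 1.92.

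Col1a2, whose product pairs with that of Col1a1, was at 4678, 2342, 2758 and 3694 CPM in WT saline and at 4070, 3731, 6336 and 9459 CPM in WT AngII. The groups overlapped in the same way, through WT saline replicate 1 and AngII replicates 1 and 2. The log2 fold change was 0.81 (SE 0.32, adjusted p = 0.438 by edgeR). Col3a1 was at 6372, 3167, 3672 and 4537 CPM in WT saline and at 5426, 5737, 8722 and 16828 CPM in WT AngII. Only WT saline replicate 1 reached into the AngII range, and AngII replicate 4 was far above all others. The log2 fold change was 1.05 (SE 0.41, adjusted p = 0.435 by edgeR).

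Of the type V chains, Col5a2 separated the WT groups and Col5a3 had nearly equal means. Col5a1 was at 609, 283, 468 and 593 CPM in WT saline and at 602, 495, 1020 and 1239 CPM in WT AngII, with AngII replicates 1 and 2 inside the saline range. Its log2 fold change was 0.78 (SE 0.31, adjusted p = 0.438 by edgeR). Col5a2 was at 457, 231, 350 and 465 CPM in WT saline and at 577, 494, 1196 and 1229 CPM in WT AngII. It was the only member whose lowest AngII library lay above its highest saline library, a separation in the higher direction that 3.67% of all tested genes showed. Its log2 fold change of 1.22 (SE 0.33, a fold of 2.33) had an adjusted p of 0.164 by edgeR. Col5a3, which encodes the third type V chain, was at 49.4, 52.0, 41.5 and 35.1 CPM in WT saline and at 42.2, 46.2, 40.0 and 74.4 CPM in WT AngII. Only AngII replicate 4 lay outside the saline range, and the log2 fold change was 0.19 (SE 0.27, adjusted p = 0.965 by edgeR).

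Col11a1 was high in a few libraries of the AngII groups and near the floor elsewhere. It was at 2.71, 0.718, 0.708 and 0.922 CPM in WT saline and at 0.687, 1.47, 9.62 and 14.4 CPM in WT AngII. AngII replicates 3 and 4 stood above all saline libraries, and replicates 1 and 2 did not. The log2 fold change of 2.38 had an SE of 1.15 and an adjusted p of 0.586 by edgeR. Type XI collagen is known from cartilage, so 9 chondrocyte markers were read beside it: their summed level was 48.1 to 141 CPM in the saline and 80.2 to 195 in the AngII group of WT, and 44.6 to 102 and 36.8 to 97.9 in those of KO. Of these, Matn1 was at 0 in every library of 3 groups and at 4 reads in all of WT AngII, and Col9a1 had 3 to 8 reads per group. Col2a1, the main cartilage collagen, is not among the 9 and had 0 to 23 reads per group. Acan, the cartilage proteoglycan that vascular cells also make, averaged 17.3 and 47.5 CPM in the WT groups (saline, then AngII) and 3.26 and 2.74 in the KO groups. It was the 1 of 5 tested markers called lower in KO, where 1.78% of all tested genes were under saline and 1.03% under AngII. Its log2 fold change was -2.41 under saline (adjusted p = 0.0151 by edgeR) and -4.11 under AngII (adjusted p = 3.03e-04 by edgeR). Sox9, the chondrocyte transcription factor, averaged 1.58 and 5.66 CPM in the WT groups and 2.44 and 2.60 in the KO groups, with a log2 fold change of 1.83 for AngII in WT (SE 0.46, adjusted p = 0.126 by edgeR). For AngII in WT, Hapln1 was at -0.43, Col9a3 at -0.04 and Comp at 0.58. For KO against WT under saline 3 of 5 were positive, Col9a3 at 1.02, Sox9 at 0.62 and Comp at 0.42. Under AngII 1 of 5 was positive, Col9a3 at 0.62. The part of these markers in the Col11a1 values was not tested.

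**Figure D1:**
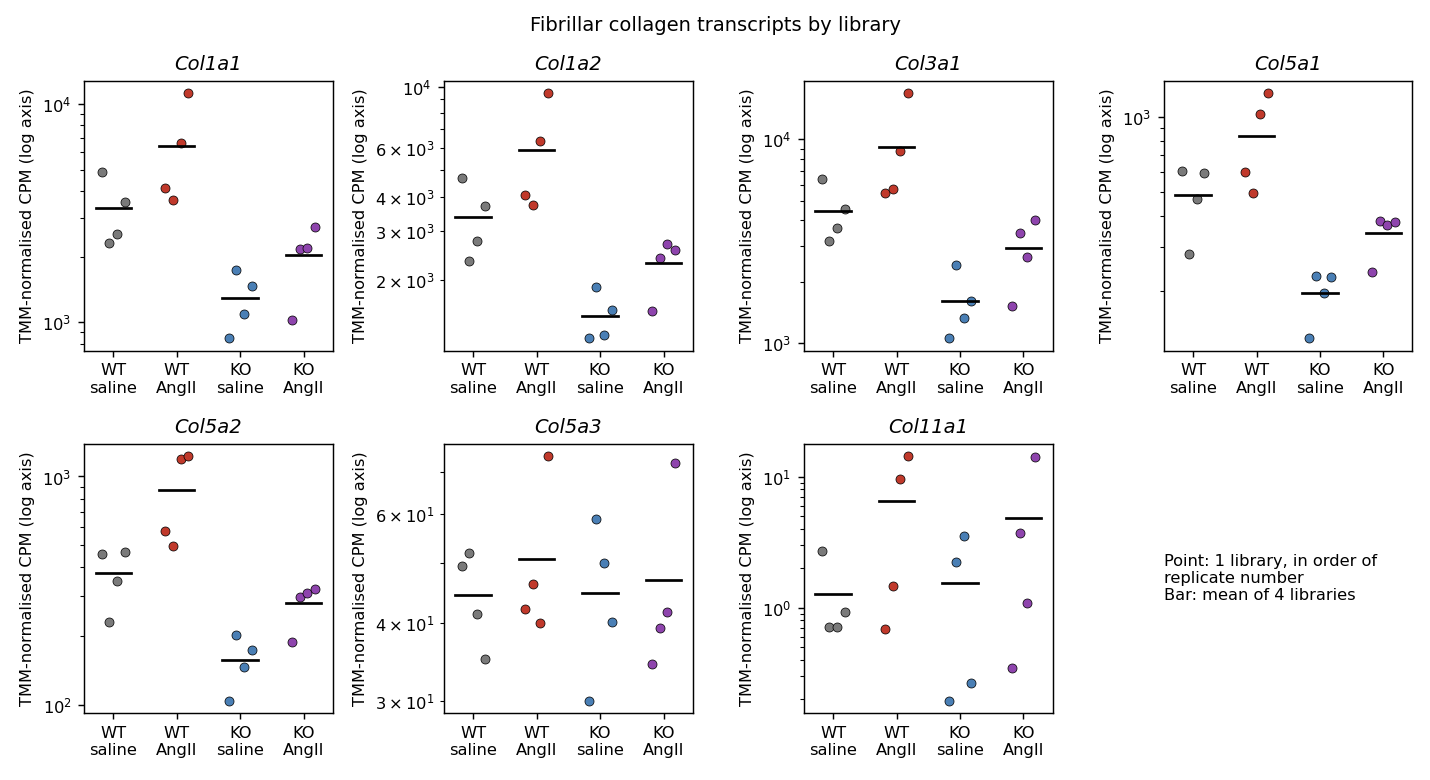
CPM of each of the 7 genes in every library (log axis), with the 4 groups side by side, each point 1 library and each bar the mean of 4. Col1a1, Col1a2, Col3a1, Col5a1 and Col5a2 share 1 pattern, with the lowest mean in KO saline and the highest in WT AngII, while Col5a3 stays between 30.0 and 74.4 CPM in all 16 libraries.

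Taken as a set in WT, 0 of 7 members passed the test for AngII against saline, where 0.444% of all tested genes did (edgeR). DESeq2 called 1 member here, Col5a2 (adjusted p = 0.0185), and 1.52% of all genes it tested, and limma voom called 0 members and 1.59%. The log2 fold change was positive for 7 of 7, against 47.8% of all genes, with a median of 0.94 against -0.01. An unadjusted p under 0.05 was reached by 5 of 7, against 8.8% of all genes. The levels of 5 of the members are closely correlated, so these counts do not hold 7 separate observations. Replicate 4 carried much of the size: without it the median was 0.53. In these whole-vessel libraries, fewer cells of a type and less RNA per cell cannot be told apart.

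In KO mice the means after AngII were again the higher ones, with log2 fold changes below those in WT except for Col5a1. Col1a1 was at 844, 1743, 1093 and 1473 CPM after saline (KO replicates 1 to 4) and at 1021, 2174, 2188 and 2743 CPM after AngII (KO replicates 1 to 4), a log2 fold change of 0.66 (SE 0.40, adjusted p = 0.365 by edgeR). Col1a2 was at 1230, 1883, 1265 and 1557 CPM after saline and at 1540, 2402, 2697 and 2560 CPM after AngII, a log2 fold change of 0.63 (SE 0.32). Col3a1 was at 1054, 2425, 1332 and 1609 CPM after saline and at 1520, 3486, 2659 and 4023 CPM after AngII, a log2 fold change of 0.86 (SE 0.41). For each of these 3 genes the overlap came from KO AngII replicate 1, the lowest of its group, with 1 or more saline libraries above it.

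Col5a1 was the member that separated the KO groups, at 130, 230, 197 and 228 CPM in saline and 238, 384, 369 and 379 CPM in AngII. Such a separation in the higher direction was seen in 4.25% of all tested genes, and the nearest libraries of the 2 groups were close, 230 and 238 CPM. Its log2 fold change was 0.80 (SE 0.31, adjusted p = 0.201 by edgeR). Col5a2 was at 104, 201, 146 and 173 CPM after saline and at 188, 296, 308 and 323 CPM after AngII, a log2 fold change of 0.84 (SE 0.33, adjusted p = 0.203 by edgeR). AngII replicate 1 again lay inside the saline range. Col5a3 was at 30.0, 58.9, 50.1 and 40.2 CPM after saline and at 34.3, 39.2, 41.7 and 72.5 CPM after AngII, with no shift between groups beyond that spread (log2 fold change 0.07, SE 0.27). Col11a1 was at 0.194, 2.23, 3.51 and 0.266 CPM after saline and at 0.350, 3.74, 1.09 and 14 CPM after AngII. KO AngII replicate 4 alone was above the rest by far, and the log2 fold change of 1.64 (SE 1.13) became 0.16 without it. In that library the chondrocyte markers summed to 39.8 CPM, in the low part of the range of all groups. Its neuron and chromaffin markers summed to 3829 CPM and its smooth muscle markers to 6015 CPM, the lowest of all libraries. The part of any of these markers in its Col11a1 value was not tested.

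In KO, 0 of 7 members passed the test for AngII against saline, and 0.0501% of all tested genes did (edgeR); DESeq2 and limma voom also called 0, and 3.62% and 3.51% of all genes they tested. Log2 fold changes were positive for 7 of 7 (51.9% of all genes), and their median was 0.80 against 0.02 for all genes. An unadjusted p under 0.05 was reached by 2 of 7, against 19.2% of all genes. Without KO AngII replicate 4 the median was 0.57. Without both KO libraries that stood apart it was 0.50, with 0 called, and the values were 0.32 for Col1a1, 0.50 for Col1a2, 0.52 for Col3a1, 0.60 for Col5a1, 0.60 for Col5a2, -0.37 for Col5a3 and -0.18 for Col11a1.

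Whether AngII acted differently in the 2 genotypes was asked with the interaction term, KO response minus WT response. It passed the test for 0 of 7 members and for 0.0188% of all genes by edgeR (0 members also by DESeq2, which called 0.357%, and by limma voom, which called 1.08%), and 0 of 7 had an unadjusted p under 0.05, against 11.2% of all genes. The values were -0.28 (SE 0.56) for Col1a1, -0.18 (SE 0.45) for Col1a2, -0.18 (SE 0.58) for Col3a1, 0.02 (SE 0.44) for Col5a1, -0.38 (SE 0.46) for Col5a2, -0.12 (SE 0.38) for Col5a3 and -0.74 (SE 1.57) for Col11a1. Each lay within 1 SE of 0, and with SEs of this size an equal response was not shown either. With counts scaled to the plain library total, the values of Col1a1, Col1a2, Col3a1 and Col5a3 were positive instead, in a scaling that moved the median of all genes by 0.35.

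Averaged over both genotypes, AngII went with higher Col5a2. Its average log2 fold change was 1.03 (SE 0.23, adjusted p = 0.0462 by edgeR), a fold of 2.04, and it was the single member called, where 0.857% of all tested genes were called higher. The other type V chains were at 0.79 (SE 0.22, adjusted p = 0.107) for Col5a1 and 0.13 (SE 0.19, adjusted p = 0.763) for Col5a3. Col3a1 was at 0.96 (SE 0.29), Col1a1 at 0.80 (SE 0.28), Col1a2 at 0.72 (SE 0.23) and Col11a1 at 2.01 (SE 0.81). An unadjusted p under 0.05 was reached by 6 of 7 members, all but Col5a3, against 15.1% of all genes. The Col5a2 call was close to the threshold: it remained when WT AngII replicate 1, WT AngII replicate 2 or KO AngII replicate 1 was left out and was lost without any 1 of the other 13 libraries, with an adjusted p of 0.119 at most. The call was also lost without both KO libraries that stood apart (adjusted p = 0.0983). DESeq2 called 4 members higher in this average, adding Col1a2, Col3a1 and Col5a1, and 2.28% of all genes it tested.

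**Figure D2:**
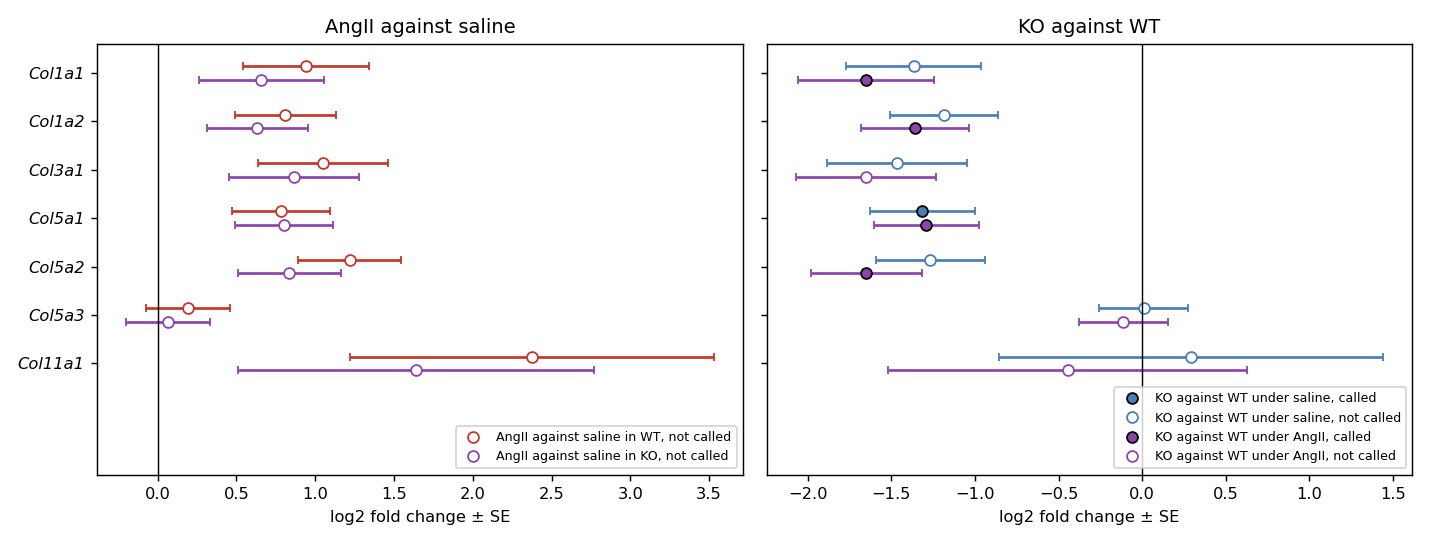
Log2 fold change of each gene with its SE, for AngII against saline in each genotype (left) and for KO against WT under each infusion (right); filled points passed the test at an adjusted p under 0.05. The AngII points lie to the right of 0 and the KO points of 5 genes lie to the left, between -1.18 and -1.65, with Col5a3 near 0 and Col11a1 with wide errors.

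Between genotypes, the transcripts of types I and III and of the type V chains other than Col5a3 had lower means in KO. Under saline, with the values per library given above, every KO library lay below every WT library for Col1a1, Col1a2, Col3a1, Col5a1 and Col5a2. Such a separation in the lower direction was seen in 5.94% of all tested genes. Col1a1 was at 3324 ± 1168 CPM in WT and 1288 ± 398 in KO (SD, n = 4 each), and Col3a1 was at 4437 ± 1409 CPM in WT and 1605 ± 592 in KO. Col5a1 was at 488 ± 151 CPM in WT and 196 ± 46.9 in KO, and Col5a2 at 376 ± 110 CPM and 156 ± 41.7.

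Of the 7 members, 1 was called lower in KO than in WT under saline, where 1.78% of all tested genes were called lower. That gene was Col5a1, with a log2 fold change of -1.31 (SE 0.31, adjusted p = 0.0384 by edgeR), a level 59.8% lower. Col5a2 was at -1.27 (SE 0.33, adjusted p = 0.0504) and Col1a2 at -1.18 (SE 0.32, adjusted p = 0.0611). Col3a1 was at -1.47 (SE 0.42, adjusted p = 0.0674) and Col1a1 at -1.37 (SE 0.40, adjusted p = 0.0759). These 4 values were of a size similar to that of Col5a1, and whether they differed from it was not tested. Col5a3 was at 0.01 (SE 0.27), with a sign that turned under other scalings, and Col11a1 at 0.29 (SE 1.15). The median of the 7 was -1.27 against 0.05 for all genes. DESeq2 and limma voom with quality weights each called 5 lower, where they called 4.71% and 10.4% of all genes they tested lower.

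The Col5a1 call under saline was lost without WT saline replicate 1, 3 or 4, without any 1 of the 4 KO saline libraries, and without KO AngII replicate 2, with an adjusted p of 0.117 at most. Without both KO libraries that stood apart, its log2 fold change was -1.16 (adjusted p = 0.0819 by edgeR), those of Col1a1, Col1a2, Col3a1 and Col5a2 were -1.21, -1.10, -1.31 and -1.11, and 0 members were called. Leaving out WT saline replicate 2, by contrast, gave 5 calls, leaving out KO AngII replicate 4 gave 4, WT AngII replicate 4 gave 3 and WT AngII replicate 2 gave 2.

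Under AngII, KO levels were again below WT levels, and 4 of 7 members were called lower, where 1.03% of all tested genes were. Col5a2 fell by 1.65 on the log2 scale (SE 0.33, adjusted p = 0.0207 by edgeR), from 874 ± 393 CPM in WT to 279 ± 61.6 in KO (SD, n = 4 each), 68.1% lower. Col1a1 fell by 1.65 (SE 0.41, adjusted p = 0.0499 by edgeR), from 6384 ± 3439 CPM to 2031 ± 724. Col1a2 fell by 1.36 (SE 0.32, adjusted p = 0.0458), from 5899 ± 2640 CPM to 2300 ± 521, and Col5a1 fell by 1.29 (SE 0.31, adjusted p = 0.0483), from 839 ± 350 CPM to 343 ± 69.8. Col3a1 had a difference as large, -1.65 (SE 0.42), with an adjusted p of 0.0547, its means being 9178 ± 5312 CPM and 2922 ± 1090. For these 5 genes every KO library lay below every WT library, against 4.8% of all tested genes in that direction.

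Col5a3 and Col11a1 were not called. Col5a3 averaged 50.7 ± 16 CPM in WT AngII and 46.9 ± 17.3 in KO AngII, a log2 fold change of -0.11 (SE 0.27). Col11a1 averaged 6.54 ± 6.61 and 4.80 ± 6.32 CPM, a log2 fold change of -0.44 (SE 1.07). The Col11a1 value was -1.92 without KO AngII replicate 4 and -1.89 without both KO libraries that stood apart. Whether Col5a3 or Col11a1 differed from the other members in the genotype difference was not tested. The median of the 7 members was -1.36 against 0.04 for all genes.

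The calls under AngII were also near the threshold, Col5a2 least so. Its call was lost without WT AngII replicate 3, WT AngII replicate 4 or KO AngII replicate 2, with an adjusted p of 0.0839 at most, and remained without both KO libraries that stood apart (log2 fold change -1.73, adjusted p = 0.0301 by edgeR). Without both, Col1a1, Col1a2, Col3a1 and Col5a1 were at -1.83, -1.41, -1.84 and -1.34. The calls of Col1a1, Col1a2 and Col5a1 all remained in the 4 fits that left out WT saline replicate 2, WT AngII replicate 2, KO saline replicate 1 or KO AngII replicate 3, and 5 members were called in those without WT AngII replicate 2 or KO saline replicate 1. That of Col1a2 also remained without WT saline replicate 1. They were lost without any other 1 library, with adjusted p-values of 0.178 or less, and without both KO libraries. Without WT AngII replicate 4, the library with the most collagen, the median of the members was -1.04 and 0 were called, as was so without WT AngII replicate 3 or KO AngII replicate 2.

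Across libraries the share of all counts taken by the 7 genes moved with other features of the libraries. In WT it was 1.32% ± 0.476 (SD, n = 4) after saline and 2.39% ± 1.24 after AngII, and in KO 0.417% ± 0.140 after saline and 0.843% ± 0.316 after AngII. KO saline, the group with the least collagen, was also the group with the largest mitochondrial share, 27.0% to 32.8% against 8.33% to 17.7% in WT saline. As a share of the counts left after removing mitochondrial genes, the 7 genes took 1.52% ± 0.521 in WT saline and 0.600% ± 0.202 in KO saline. With counts scaled to that total, the members' median for KO against WT was -1.27 under saline and -1.27 under AngII, with 0 and 1 members called. The 3210 tested genes of 6563 to 12744 bases, the members' own range, had a median of -0.10 for KO against WT under saline. Of them, 61.1% were below 0 and 3.18% were called lower. Under AngII they had a median of 0.07, with 38.9% below 0 and 0.810% called lower. The part of the mitochondrial share in the collagen differences was not tested. Under saline it cannot be told apart from genotype, as the shares of the KO and WT groups do not overlap.

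**Figure D3:**
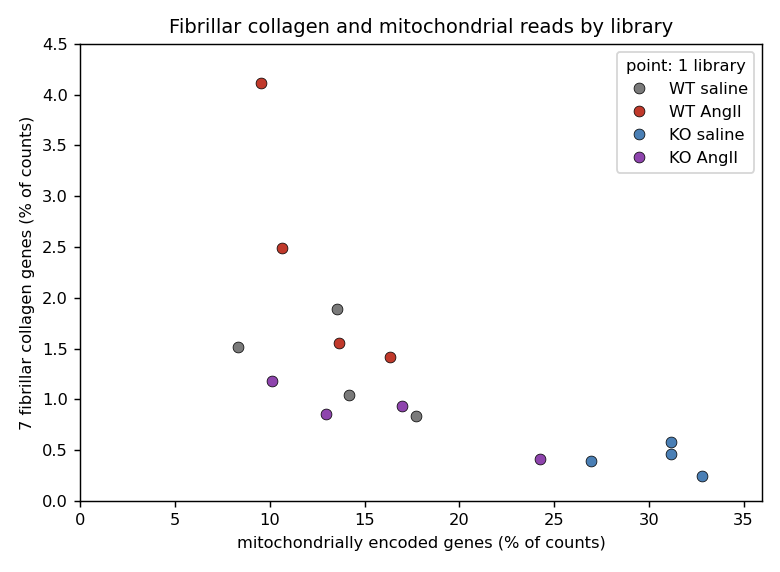
Share of counts in the 7 genes (vertical axis, %) against the share in mitochondrially encoded genes (horizontal axis, %), each point 1 library coloured by group. The 4 KO saline libraries lie at 27.0% to 32.8% mitochondrial reads and at or below 0.578% collagen reads, and the KO AngII libraries lie below the WT AngII libraries at mitochondrial shares that overlap.

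Markers of the cell types an aortic sample can hold were read beside these differences. Fibroblast markers, the cells that make most adventitial collagen, had median sums of 2538 and 2653 CPM in the WT groups (saline, then AngII) and 2307 and 2183 CPM in the KO groups, with overlapping ranges in every comparison, and 0 of 8 passed any test (an unadjusted p under 0.05 in 1 to 5 of 8 per comparison, by edgeR). For KO against WT under AngII, 8 of 8 were negative, 5 of 8 had an unadjusted p under 0.05 by edgeR and their median log2 fold change was -0.62, against -0.17 under saline. Dpt, Lum and Dcn are also in the list of fibril-associated genes. Pdgfra, a defining fibroblast gene, averaged 104, 110, 67.4 and 68.6 CPM in the same order. For KO against WT under saline it was at -0.62, the 1 of 8 at an unadjusted p under 0.05 by edgeR. In that comparison 3 of 8 were positive, Lum at 0.04, Dcn at 0.09 and Cd34 at 0.13. Smooth muscle markers had median sums of 21194, 12882, 9331 and 15031 CPM, and 0 of 8 passed (edgeR), with 8 of 8 negative and 6 of 8 at an unadjusted p under 0.05 for KO against WT under saline. Adipocyte markers summed to 1658 to 12248 CPM in WT saline and 5776 to 17615 in KO saline. Their log2 fold changes for KO against WT were positive in 8 of 8 under saline (median 0.90). None of these 8 had an unadjusted p under 0.05 by edgeR. Under AngII 6 of 8 were positive (median 0.34), and 1 of 8, Lep, was called higher in KO. Endothelial markers were positive for KO against WT in 8 of 8 under saline (median log2 fold change 0.49) and in 8 of 8 under AngII (median 0.50). Their sums were 982 to 1256, 652 to 1292, 934 to 2139 and 801 to 1980 CPM in the order WT saline, WT AngII, KO saline, KO AngII. Of the 8, 0 were called (0 to 3 at an unadjusted p under 0.05, by edgeR). Macrophage markers summed to 173 to 325 CPM, 214 to 555, 182 to 219 and 159 to 225 in that order, and 0 of 8 were called (0 to 7 at an unadjusted p under 0.05, by edgeR). For KO against WT under AngII, 8 of 8 macrophage markers were negative, 7 of 8 had an unadjusted p under 0.05 by edgeR and their median was -0.93, while for AngII in WT 8 of 8 were positive with a median of 0.56. Skeletal muscle markers summed to 20.8 CPM or less in every library outside KO saline. They summed to 598 CPM in KO saline replicate 3 and to 24.6 CPM or less in the rest of that group. Replicate 3 is kept in the values given without both KO libraries that stood apart. For KO against WT under saline, 7 of 7 tested had an unadjusted p under 0.05 by edgeR (median 3.87), and 0 were called. Dividing cell markers rose with AngII in WT, from a median sum of 13.5 to 117 CPM. Of these, 6 of 8 were called, against 0.444% of all tested genes called either way. Between genotypes under AngII, 0 of 8 were positive and 0 were called. All 8 had an unadjusted p under 0.05 by edgeR, with a median log2 fold change of -1.31. Under saline 6 of 8 were positive for KO against WT, with a median of 0.46. The part of these cell types in the collagen differences was not tested. Over all tested genes, the median for KO against WT was 0.05 under saline and 0.04 under AngII. Shares of all genes by sign or unadjusted p are not given here for KO against WT. The marker counts of those comparisons are thus not set against a background. For AngII in WT, 47.8% of all tested genes were positive and 8.8% had an unadjusted p under 0.05 by edgeR.

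The ratio of 2 genes within a library does not depend on scaling, so chain balance was compared as read ratios. The Col1a2 to Col1a1 ratio averaged 1.02 ± 0.0516 (SD, n = 4) and 0.954 ± 0.0761 in the WT groups (saline, then AngII) and 1.19 ± 0.185 and 1.2 ± 0.243 in the KO groups. It reached 1.46 and 1.51 in the first replicates of KO saline and KO AngII, the 2 libraries with the least collagen in their groups, and 0.848 to 1.23 in the other 14. The Col3a1 to Col1a1 ratio averaged 1.35, 1.43, 1.24 and 1.44 in the same order of groups. The Col5a1 to Col1a1 ratio averaged 0.149, 0.137, 0.155 and 0.179. Of 12 comparisons, 3 ratios by 4 pairs of groups, 0 passed: the lowest exact two-sided permutation p was 0.0857 (adjusted over the 12, 0.343), where 4 against 4 libraries allow 0.0286 at the least. Groups overlapped in all 12.

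**Figure D4:**
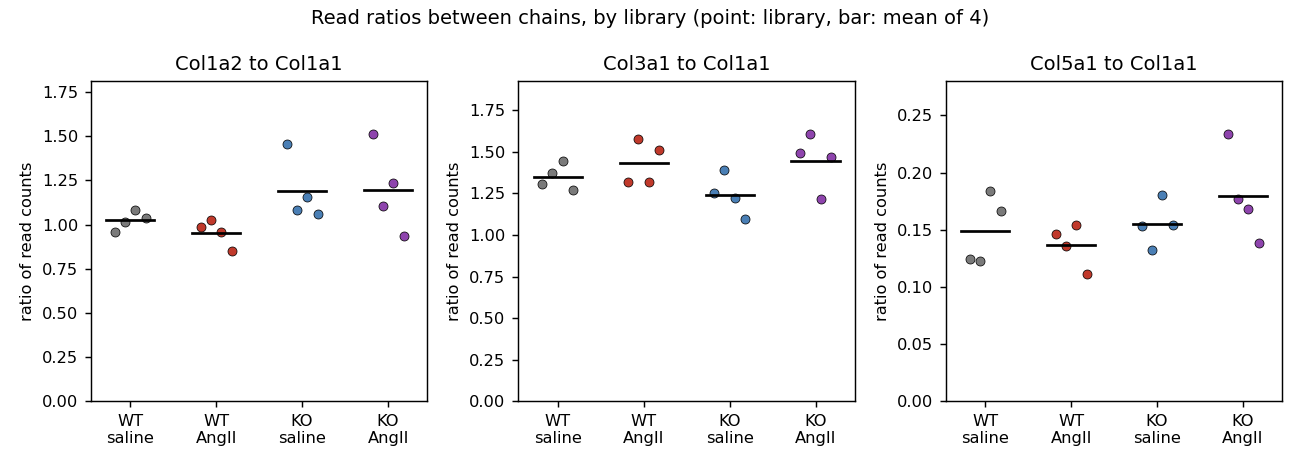
Read ratio of Col1a2, Col3a1 and Col5a1 to Col1a1 in each library (points) with the mean of the 4 libraries of a group (bars), on linear axes from 0. Groups overlap in every panel, and the highest Col1a2 to Col1a1 ratios, 1.46 and 1.51, belong to replicate 1 of each KO group.

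The levels of 5 members were closely correlated from library to library, and those of Col5a3 and Col11a1 less closely over all 16. Over the 16 libraries, Pearson correlations of log2 CPM between any pair of Col1a1, Col1a2, Col3a1, Col5a1 and Col5a2 were 0.963 to 0.991, and 0.860 to 0.982 after removing each group's mean. Those of Col5a3 with the same 5 genes were 0.323 to 0.478, those of Col11a1 were 0.571 to 0.640, and Col5a3 with Col11a1 gave 0.722. After removing each group's mean, Col5a3 gave 0.376 to 0.681 with the 5 genes, the highest being with Col3a1, Col11a1 gave 0.672 to 0.804, and Col5a3 with Col11a1 gave 0.730. Libraries share depth and scaling across genes and fall into 4 groups, so these are descriptions and carry no p. The genes whose log2 CPM most resembled the members' mean profile, among 15977 others, were Loxl2 (Pearson 0.949, Spearman 0.968), a lysyl oxidase, Cdh11 (0.949, 0.956), a mesenchymal cadherin, and Mmp14 (0.947, 0.924), a membrane collagenase. C1qtnf6 (0.940, 0.929) and Rcn1 (0.938, 0.950), a calcium-binding protein of the endoplasmic reticulum, came next. C1qtnf6 was called lower in KO under saline (log2 fold change -1.42, adjusted p = 0.0399 by edgeR) and under AngII (-1.91, adjusted p = 0.0103). Rcn1 was called higher in the average AngII effect (0.69, adjusted p = 0.0430 by edgeR).

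The rest of the collagen pathway was read from 8 lists. The 4 other fibrillar chains gave no call by edgeR: Col2a1 and Col24a1 did not pass the filter, and Col27a1 and Col11a2 had average AngII log2 fold changes of -0.33 (SE 0.13, adjusted p = 0.242) and -0.37 (SE 0.23, adjusted p = 0.455 by edgeR). No gene of the 8 lists was called by edgeR for AngII in WT or in KO alone, and 0 to 7 genes of each had an unadjusted p under 0.05. Of all tested genes, 0.444% were called in WT and 0.0501% in KO. An unadjusted p under 0.05 was reached by 8.8% and 19.2% of them.

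Inside the cell, procollagen chains are hydroxylated, folded and exported by a dedicated set of proteins, and 19 of 19 of these were tested. In the average AngII effect, where 0.857% of all tested genes were called higher, 2 rose, Plod2, a lysyl hydroxylase, by 1.05 (SE 0.20, adjusted p = 0.0214 by edgeR), and Sec23a, a coat protein of export vesicles, by 0.46 (SE 0.10, adjusted p = 0.0351), and 0 fell. For KO against WT, 5 of 19 were called lower under saline (1.78% of all tested genes) and 4 of 19 under AngII (1.03%), with 0 higher, and the list medians were -0.62 and -0.54. Serpinh1, the collagen chaperone HSP47, was called lower both times and is named after its values were seen. It averaged 918 ± 193 CPM in WT saline and 281 ± 38.7 in KO saline (SD, n = 4), a log2 fold change of -1.71 (SE 0.24, adjusted p = 0.00135 by edgeR). It averaged 1101 ± 299 CPM in WT AngII and 416 ± 93.9 in KO AngII, a log2 fold change of -1.40 (SE 0.24, adjusted p = 0.00642).

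Outside the cell, procollagen ends are trimmed, and 7 of 8 proteinases and enhancers were tested. In the average AngII effect 0 of 7 passed (2 at an unadjusted p under 0.05, against 15.1% of all tested genes). Adamts2, the main procollagen N-proteinase, was at 0.62 (SE 0.21, adjusted p = 0.177 by edgeR) and Adamts3 at 0.88 (SE 0.36, adjusted p = 0.267). Bmp1, the C-proteinase, was the 1 member called lower in KO under AngII, at -1.26 (SE 0.27, adjusted p = 0.0322 by edgeR). Of all tested genes, 1.03% were called lower there. Lysyl oxidases cross-link the fibrils. In the average AngII effect 0 of 5 passed and 5 of 5 had an unadjusted p under 0.05, against 15.1% of all tested genes. Lox was at 1.14 (SE 0.27, adjusted p = 0.0566 by edgeR) and Loxl2 at 0.85 (SE 0.23, adjusted p = 0.0960). Lox averaged 346 and 1005 CPM in the WT groups (saline, then AngII) and 149 and 250 CPM in the KO groups, and it was the 1 of 5 called lower in KO under AngII (-2.01, SE 0.39, adjusted p = 0.0155 by edgeR).

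Proteins that coat or bind the fibrils formed a list of 14, all tested. In the average AngII effect 2 rose, Postn, encoding periostin, by 1.51 (SE 0.26, adjusted p = 0.0131 by edgeR), and Fn1, encoding fibronectin, by 1.26 (SE 0.25, adjusted p = 0.0251). Of all tested genes, 0.857% were called higher in that average. Postn averaged 1609 and 4307 CPM in the WT groups (saline, then AngII) and 687 and 2081 CPM in the KO groups. Sparc, a secreted collagen-binding protein, was the 1 of 14 called lower in KO, at -1.2 under saline (SE 0.26, adjusted p = 0.0247 by edgeR) and -1.61 under AngII (SE 0.26, adjusted p = 0.00525). Of all tested genes, 1.78% were called lower under saline and 1.03% under AngII. Of 8 collagen receptors and uptake genes, 0 passed in the average AngII effect (2 at an unadjusted p under 0.05, against 15.1% of all tested genes). Itga2 was at 0.81 (SE 0.37, adjusted p = 0.315) and Ddr1 at 0.34 (SE 0.16, adjusted p = 0.329 by edgeR). Mrc2, the collagen uptake receptor, was the 1 called lower in KO under AngII (-1.19, SE 0.28, adjusted p = 0.0436 by edgeR).

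Of the collagen-degrading proteases 4 of 6 were tested, and 0 passed in the average AngII effect (4 at an unadjusted p under 0.05, against 15.1% of all tested genes). Ctsk was at 0.60 (SE 0.21, adjusted p = 0.189) and Mmp2 at 0.71 (SE 0.26, adjusted p = 0.210 by edgeR). Ctsk, encoding the collagenolytic cathepsin K, was called lower in KO under AngII (-1.43, SE 0.29, adjusted p = 0.0245 by edgeR), as were 1.03% of all tested genes. TGF-β is a well-known inducer of fibrillar collagen genes. Of 12 TGF-β ligands, receptors and targets, 0 were called for KO against WT under either infusion (2 at an unadjusted p under 0.05 in each, by edgeR). The list's median for KO against WT was -0.34 under saline and 0.02 under AngII.

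**Figure D5:**
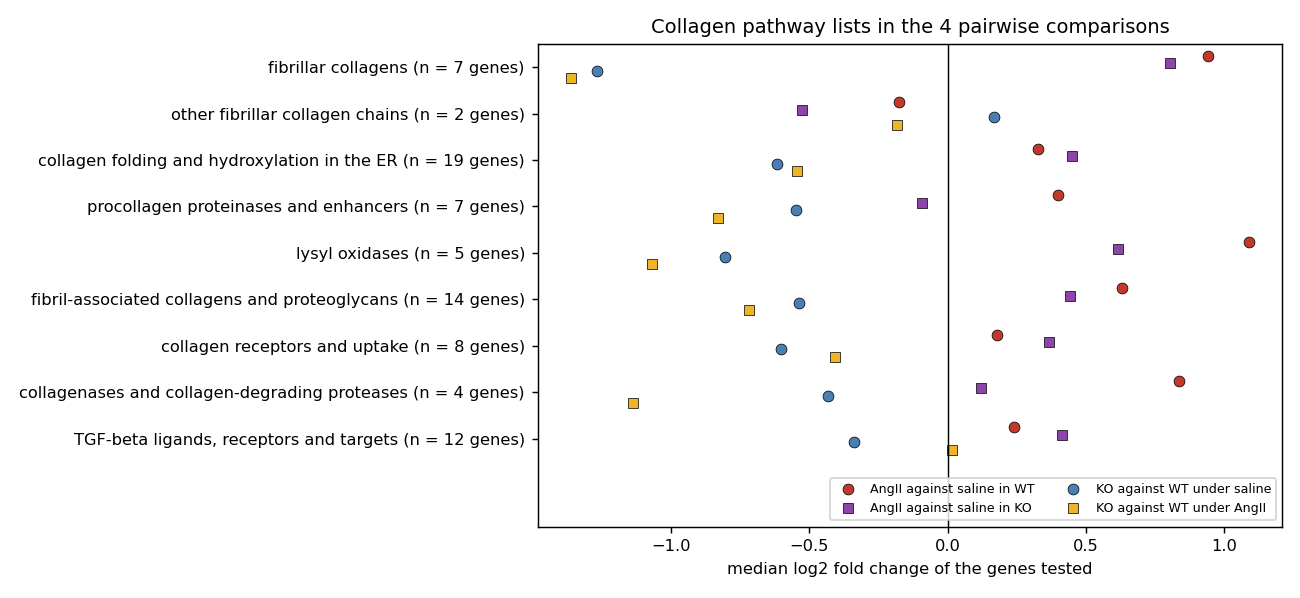
Median log2 fold change of the genes tested in each list (rows) for the 4 pairwise comparisons (symbols). In both genotype comparisons the fibrillar collagens have the lowest medians of the 9 rows, -1.27 and -1.36, and the TGF-β list lies at -0.34 and 0.02.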

How the data were processed

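Group and replicate came from the sample titles. The authors deposited whole-number read counts for each gene from poly-A RNA, not normalized. Per the submitters' processing notes, HISAT2 2.0.5 and featureCounts 1.5.0-p3 were used, along with DESeq2 1.20.0 and the GRCm39 build; for annotation release, strand setting and reads mapping to several genes, settings were not given in the sources used here. Exons of Col5a1 overlap the antisense genes 2810430I11Rik by 99 bases and Gm13372 by 113, which held 1 to 68 reads per library.

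All 16 libraries were fitted with edgeR 4.0.16 (R 4.3.3), with filterByExpr, TMM scaling, group means and the quasi-likelihood F test (12 residual df), adjusted by Benjamini-Hochberg over 15984 genes. A gene was called at an adjusted p under 0.05. The filter kept at least 99.5% of the counts of each library. The biological coefficient of variation was 35.3%. CPM uses the TMM factors, and log2 CPM a prior count of 2. Exon lengths came from GENCODE M21 on GRCm38, used for length only. The test was tried on simulated counts. The comparisons of AngII with saline and of KO with WT share groups, so their values are not independent.

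The members and the lists were chosen with earlier results of these data known. In each comparison all 7 members are named. Of each other list, up to 4 genes called in an AngII comparison are named, or else the 2 with the smallest p in the average; genes named for KO against WT were chosen after their values were seen. The average AngII effect in the TGF-β list is not reported here. Alternatives were other scalings and filters, DESeq2 1.42.0, limma 3.58.1 voom, a replicate block, only the groups compared, and leaving libraries out.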

Additional observations from a re-analysis of the deposited data

Results flagged for a closer look

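In a group of 4, a library was flagged when its gap to the nearest other took a share of the group's range above Dixon's 95% critical value, and chance flags about 1 in 20 groups. Col5a1 in KO AngII was flagged for its lowest library, replicate 1, at 238 CPM, with the nearest other at 369 CPM. Col11a1 in WT saline was flagged for its highest library, replicate 1, at 2.71 CPM, with the nearest other at 0.922 CPM.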

How the results depend on the processing

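The direction of Col1a1, Col1a2, Col3a1, Col5a1 and Col5a2 was kept in all 4 pairwise comparisons under every alternative run, while the number of calls moved. For KO against WT under saline the members called were 2 with RLE scaling, 5 with the plain total count, 0 with the total without mitochondrial genes, 2 with the strict filter, 5 with DESeq2, 5 with limma voom, 0 with only the groups compared and 0 without both KO libraries that stood apart, and 0 to 5 when single libraries were left out. For KO against WT under AngII they were 0 with the plain total, 1 with the total without mitochondrial genes, 1 with no filter, 0 with only the groups compared and 1 without both KO libraries, and 0 to 5 in the leave-one-out fits. In the average AngII effect they were 0 with either total count, 0 with no filter, 4 with DESeq2 and 0 without both KO libraries, and 0 to 1 in the leave-one-out fits. DESeq2 called 1 for AngII in WT. The plain total shifted the median of all genes by 0.27 for AngII in KO, by -0.33 for KO against WT under saline and by 0.35 in the interaction.

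Replicate numbers did not pair the libraries: same-number correlations ran from -0.42 to 0.44, with 6 of 16 over 0.1. With the replicate block, 1 member was called for KO against WT under AngII and 0 in the average AngII effect, and under saline the log2 fold changes of Col5a3 and Col11a1 turned to -0.024 and -0.21.

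The values whose sign turned were those of Col5a3, Col11a1, the interaction and some ratios. Col5a3 for KO against WT under saline was -0.0044 with RLE scaling, -0.28 with the plain total, -0.046 with no filter, -0.0073 with DESeq2, -0.0061 with only the groups compared and -0.15 to 0.12 in the leave-one-out fits. Col5a3 for AngII in KO was -0.28 with limma voom, -0.37 without both KO libraries and -0.23 to 0.23 leaving 1 out; in WT the leave-one-out range was -0.054 to 0.29, for KO against WT under AngII -0.42 to 0.13, and in the average -0.017 to 0.21 (-0.078 with limma voom, -0.091 without both KO libraries). Col11a1 without both KO libraries was -0.18 for AngII in KO, and its leave-one-out ranges were -0.51 to 0.97 for KO against WT under saline and -1.92 to 0.29 under AngII. In the interaction, the plain total gave 0.091 for Col1a1, 0.19 for Col1a2, 0.19 for Col3a1 and 0.22 for Col5a3, limma voom gave 0.15 for Col1a2 and 0.14 for Col3a1, and Col5a1 was -0.18 without both KO libraries. Leave-one-out ranges of the interaction were -0.55 to 0.13 for Col1a1, -0.40 to 0.15 for Col1a2, -0.43 to 0.28 for Col3a1, -0.18 to 0.27 for Col5a1, -0.43 to 0.12 for Col5a3 and -2.22 to 0.067 for Col11a1. The log2 ratio of Col1a2 to Col1a1 for AngII in KO was 0.21 without both KO libraries and -0.12 to 0.11 leaving 1 out. That of Col3a1 to Col1a1 for KO against WT under AngII ran from -0.042 to 0.092, and that of Col5a1 to Col1a1 under saline from -0.019 to 0.18. Apart from the fits with fewer samples, the cause was not tested. Of the other values of single genes, 912 stayed on their side of the threshold, 87 lost and 31 gained a call.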
